A study of Mus musculus with 6 samples.

Results

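Pou5f1, Nanog, Sox2, Klf4, Lin28a, Lin28b, Dppa3, Dppa4 and Utf1 are genes of the pluripotency programme that fetal germ cells share with embryonic stem cells. These 9 genes were taken by symbol from an expression array, where 12 of 55681 distinct non-control probes carry one of their names. Gonocytes are the germ cells of the fetal and newborn testis, which lie in cords among Sertoli cells and descend from primordial germ cells. Pou5f1 (also called Oct4), Nanog and Sox2 encode transcription factors that hold embryonic stem cells in the undifferentiated state, and Klf4 encodes a factor that helps to restore that state in other cells. Lin28a and Lin28b encode RNA-binding proteins that block maturation of the let-7 microRNAs. Dppa3, Dppa4 and Utf1 encode chromatin-associated proteins of pluripotent cells and early germ cells.

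RNA came from whole testes of male mice at postnatal day 0, of an FVB.129/Sv mixed strain, with 2 animals in each of 3 genotype groups and 1 array per animal. All mice carried Vasa-cre, a Cre recombinase driven by the promoter of Ddx4, a germ cell gene with the other names Vasa and Mvh. VSKO mice were Vasa-cre;Sin3a deleted/floxed, HEMI mice were Vasa-cre;Sin3a deleted/+ with 1 intact allele, and WT mice were Vasa-cre;Sin3a +/+ with 2 intact alleles. Sin3a encodes the scaffold of a histone deacetylase co-repressor complex. Every sample holds the somatic cells of the testis as well, since the whole organ was used. Whether somatic cells of VSKO and HEMI mice also carry the deleted allele is not given in the sources used here. In whole tissue, fewer germ cells and less RNA per germ cell cannot be told apart. The p-values below measure the spread between these animals, and 2 animals a group limit the precision.

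Between 59.2% and 64.53% of the non-control spots of an array were well above background and 0 were saturated. The animals of a group correlated at r = 0.987 to 0.992 across the 24553 genes tested, with 1 probe a gene. All 6 arrays lay on 1 slide, with WT in another slide row than VSKO and HEMI, so slide row and genotype cannot be told apart in the comparisons with WT. The Sin3a signal was 0.61 and 0.38 in VSKO, 0.89 and 0.89 in HEMI and 1.09 and 1.11 in WT, on a log2 scale whose 0 is the 75th percentile of the array. VSKO animals were lowest and the groups did not overlap. The VSKO difference from WT was -0.60 ± 0.13 (SE), which missed the threshold (limma adjusted p = 0.134), and the HEMI difference was -0.21 ± 0.13 (adjusted p = 0.568). Which exons were deleted is not given in the sources used here, so whether the Sin3a probe lies in them is not known. Sin3b, the paralogous scaffold, differed from WT by 0.13 in VSKO and 0.12 in HEMI. Germ cell presence was read from Ddx4 and Dazl, RNA regulators of the germ line that are among 18 germ cell markers tested. Over all 18 the differences from WT ran from -1.76 to 1.01 in VSKO and from -2.19 to 0.49 in HEMI. Ddx4 was between 1.73 and 2.31 and Dazl between 1.33 and 1.90 over the 6 arrays. The Ddx4 difference from WT was -0.24 (adjusted p = 0.569) in VSKO and 0.10 (adjusted p = 0.84) in HEMI, and that of Dazl was -0.31 (adjusted p = 0.491) and -0.22 (adjusted p = 0.647).

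The results turn on Pou5f1, Lin28b, Dppa4, Utf1 and Dppa3, and probes of 4 of these genes are shown so that the part of each transcript behind the values is visible. All are 60 bases long on the array, printed 5′ to 3′ on the transcript strand, with positions on mouse build mm9. The probes of Pou5f1, Dppa4 from base 684 and Lin28b from base 376 are given whole, and the others by their first 30 bases. Lin28b is shown for both of its probes, since they sample distant parts of 1 transcript. Dppa4 is shown for the probe behind the comparisons, from base 936, whose genomic positions span 652 bases, and for a second one, and it has a further probe from base 1474.
Pou5f1, base 903, chr17:35647280-35647340 (+): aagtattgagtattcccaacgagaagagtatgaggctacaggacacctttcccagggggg
Lin28b, base 376, chr10:45140412-45140471 (-): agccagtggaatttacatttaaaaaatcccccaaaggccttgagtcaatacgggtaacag
Lin28b, base 5300, chr10:45096468-45096527 (-): ggactgtctttgtaccgaatgtcttactct
Dppa4, base 936, chr16:48293216-48293867 (+): ataagaacaagatcttgactaagagcctcg
Dppa4, base 684, chr16:48291368-48291427 (+): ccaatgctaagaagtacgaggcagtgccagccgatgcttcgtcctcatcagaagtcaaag
Dppa3, base 735, chr6:122580207-122580266 (+): cccagggctgaggaataaagtaaatagaat

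All 9 genes had a probe well above background on all 6 arrays, so each could be measured in every animal. Where a gene had several probes, the brightest stood for it in the comparisons. Distance to background was smallest for Dppa3, whose lowest array lay 1.21 log2 units above the dimmest signal still called well above background, and for Sox2 at 1.80. The lowest arrays of Nanog, Pou5f1 and the Lin28b probe from base 5300 lay 4.26, 4.37 and 4.44 above it, and those of Lin28a, Utf1, Dppa4 and Klf4 between 5.41 and 7.04. Outside the used probes, the Dppa4 probe from base 1474 came within 1.41 of it, and the Lin28b probe from base 376 was above background in HEMI and WT but not in VSKO. A probe named Nanogpd, after a Nanog pseudogene, was above background on 0 of 6 arrays and is not counted as Nanog. Its mapped position, chr6:122663514-122663573 (+), lies near that of the Nanog probe, chr6:122663676-122663735 (+). Whether it can read Nanog transcripts was not tested.

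None of the 9 genes passed the test between any pair of genotypes (limma, Benjamini-Hochberg adjusted p under 0.05 over 24553 genes). The background was 0.965% of all genes tested for VSKO against WT, 0.118% for HEMI against WT and 0.143% for VSKO against HEMI. At an unadjusted p under 0.05, VSKO lay below WT for Pou5f1 and Lin28b, 2 of 9 genes, against 7.51% of all genes lower at that level. In HEMI against WT 4 of 9 were lower, Pou5f1, Dppa3, Dppa4 and Utf1, against 7.68% of all genes. In VSKO against HEMI, Dppa3 and Utf1 were higher and Lin28b lower, against 4.43% of all genes higher and 3.26% lower. Counting instead the genes whose animals did not overlap between groups gave 3 lower and 1 higher of 9 in VSKO against WT (23.4% and 22.3% of all genes), 4 lower and 0 higher in HEMI against WT (28.4% and 20.9%), and 5 higher and 1 lower in VSKO against HEMI (18.8% and 14.1%). Without either WT array, the count of genes called over the whole array was 0 in all 3 comparisons. The median difference of the 9 genes was -0.16 in VSKO against WT, -0.28 in HEMI against WT and 0.15 in VSKO against HEMI, where the medians over all genes were -0.01, -0.02 and 0.02. The 3 comparisons share arrays in pairs, so a high or low group enters 2 of them.

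**Figure D1:**
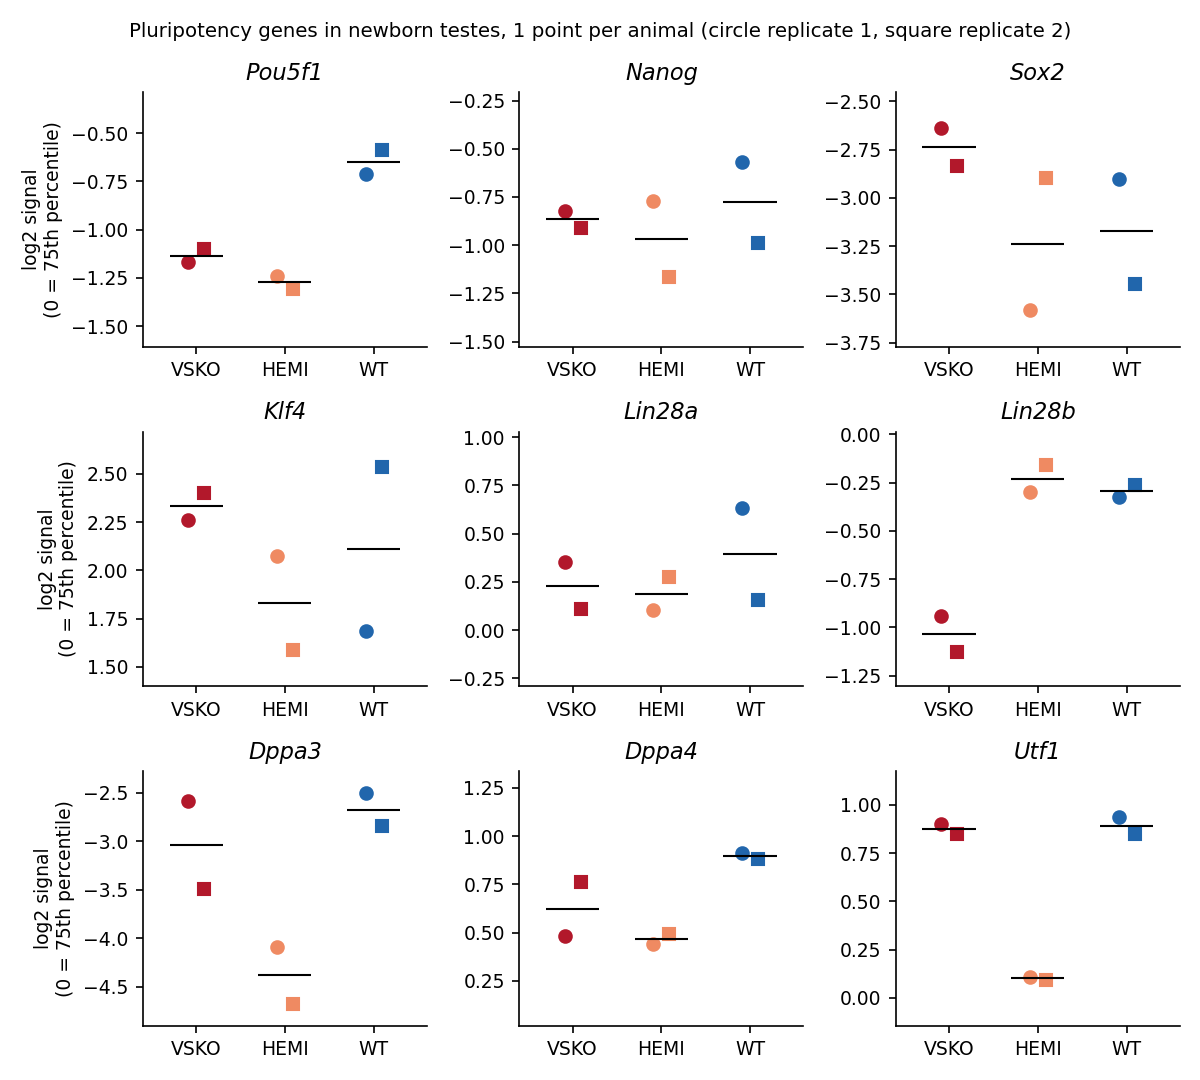
Log2 signal (0 is the array's 75th percentile) of the 9 pluripotency genes in newborn testes, 1 point per animal and a bar for the mean of 2 animals. Each panel has its own vertical axis, since levels of different probes are not comparable. Pou5f1 and Dppa4 are higher in both WT animals than in the other 4, Lin28b is lower in both VSKO animals, and Utf1 and Dppa3 are lower in both HEMI animals.

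Among the core transcription factors, Pou5f1 had lower signal in both Sin3a genotypes than in WT. Its values were -1.17 and -1.10 in VSKO, -1.24 and -1.31 in HEMI and -0.71 and -0.58 in WT. Both WT animals lay above the other 4, and both HEMI animals lay just below both VSKO animals. The VSKO difference from WT was -0.49 (95% interval -0.79 to -0.18), 1.40-fold lower, with an unadjusted p of 0.00864 and an adjusted p of 0.17. The HEMI difference was -0.63 (-0.93 to -0.32), 1.54-fold lower, with an unadjusted p of 0.0029 and an adjusted p of 0.159. VSKO and HEMI differed by 0.14 (-0.16 to 0.44, adjusted p = 0.994), and the mean of HEMI was no nearer to WT than that of VSKO.

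Nanog, which acts beside Pou5f1 in stem cells, had overlapping values in all 3 genotypes. It measured -0.82 and -0.91 in VSKO, -0.77 and -1.16 in HEMI and -0.57 and -0.99 in WT. The 2 WT animals spanned both VSKO animals. The differences from WT were -0.09 (-0.62 to 0.45, adjusted p = 0.881) in VSKO and -0.19 (-0.72 to 0.35, adjusted p = 0.745) in HEMI. Nanog has pseudogene copies in the mouse genome, and whether their transcripts bind the Nanog probe was not tested.

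Sox2, a factor also found in peripheral glia, was dim in every animal. Its values were -2.64 and -2.84 in VSKO, -3.58 and -2.90 in HEMI and -2.90 and -3.45 in WT. Both VSKO animals lay above the other 4, by a margin smaller than the gap between the 2 animals of HEMI or of WT. The VSKO difference from WT was 0.44 (-0.32 to 1.19, adjusted p = 0.561), and the HEMI difference was -0.07 (-0.82 to 0.69, adjusted p = 0.942). Of the glia and neuron markers 8 of 9 were tested and 0 passed in any comparison. Their median level was -1.90 and -1.72 in VSKO, -1.03 and -1.46 in HEMI and -1.80 and -1.44 in WT, and their part in the Sox2 values was not tested.

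Klf4, which Sertoli cells also express, varied as much within WT as between genotypes. It measured 2.26 and 2.40 in VSKO, 2.08 and 1.59 in HEMI and 1.69 and 2.53 in WT. The 2 WT animals spanned both VSKO animals and the higher HEMI animal. The differences from WT were 0.22 (-0.60 to 1.04, adjusted p = 0.796) in VSKO and -0.28 (-1.10 to 0.54, adjusted p = 0.754) in HEMI, and VSKO exceeded HEMI by 0.50 (-0.32 to 1.32, adjusted p = 0.939). Of 11 Sertoli cell markers 0 passed in any comparison, with median differences from WT of 0.01 in VSKO and 0.01 in HEMI.

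Lin28a, the paralogue that marks undifferentiated male germ cells, had overlapping values in the 3 genotypes. It measured 0.35 and 0.11 in VSKO, 0.10 and 0.27 in HEMI and 0.63 and 0.15 in WT. The highest value was that of WT animal 1, and the other WT animal lay among the VSKO and HEMI values. The differences from WT were -0.16 (-0.68 to 0.35, adjusted p = 0.759) in VSKO and -0.21 (-0.72 to 0.31, adjusted p = 0.713) in HEMI.

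Lin28b had its lowest values in VSKO on both of its probes. The probe from base 5300 gave -0.94 and -1.13 in VSKO, -0.30 and -0.16 in HEMI and -0.32 and -0.26 in WT. Both VSKO animals lay below the other 4, and HEMI and WT overlapped. The VSKO difference was -0.74 (-1.08 to -0.41) from WT and -0.81 (-1.14 to -0.47) from HEMI, 1.67-fold and 1.75-fold lower. The unadjusted p-values were 0.00209 and 0.00143, and the adjusted p-values 0.0916 and 0.147. HEMI differed from WT by 0.06 (-0.27 to 0.40, adjusted p = 0.865).

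The Lin28b probe from base 376 was much nearer to background and also lowest in VSKO. It gave -5.96 and -5.45 in VSKO, -4.62 and -4.62 in HEMI and -4.18 and -4.17 in WT, and the 3 groups did not overlap. Since it was not well above background in VSKO, its VSKO level was replaced by a limit. That limit was the dimmest signal called well above background on each VSKO array, or the probe's own signal where that was higher. WT was 2.74-fold and HEMI 2.02-fold above this limit. VSKO animal 2 lay 0.12 above the dimmest signal and was still not called, so the true limit can be higher and these folds are not strict bounds. The probe was kept for testing through HEMI and WT, so no p is given for VSKO and it adds no second test. Between HEMI and WT, where it was above background, the difference was -0.44 on this probe (adjusted p = 0.449 with each probe tested on its own) and 0.06 on the other.

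**Figure D2:**
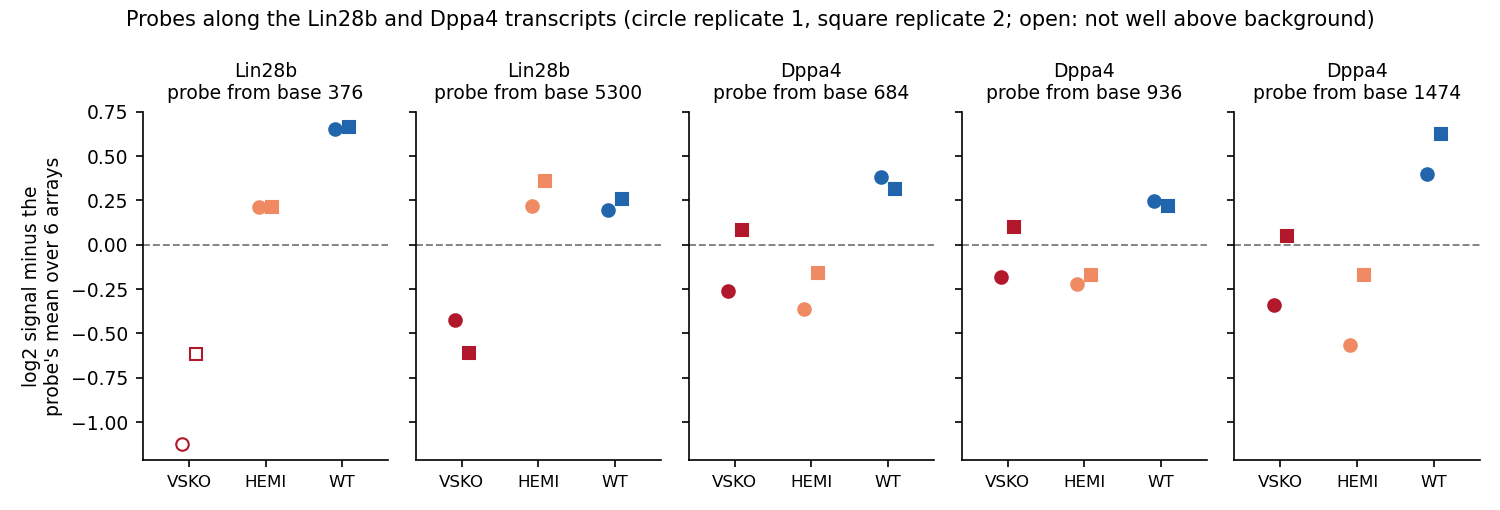
Log2 signal of each Lin28b and Dppa4 probe minus that probe's mean over the 6 arrays (vertical axis), by genotype, with 1 point per animal and open symbols where the probe was not well above background. Both Lin28b probes are lowest in VSKO, and all 3 Dppa4 probes are highest in WT.

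Dppa4, a DNA-binding partner of Dppa2, was highest in WT on all of its probes. The brightest probe, from base 936, gave 0.48 and 0.76 in VSKO, 0.44 and 0.49 in HEMI and 0.91 and 0.88 in WT. Both WT animals lay above the other 4, while VSKO and HEMI overlapped. The VSKO difference from WT was -0.28 (-0.63 to 0.08, adjusted p = 0.443), and the HEMI difference was -0.43 (-0.78 to -0.07), with an unadjusted p of 0.0266 and an adjusted p of 0.333. The probe from base 684 gave 0.15 and 0.49 in VSKO, 0.05 and 0.26 in HEMI and 0.79 and 0.72 in WT, with differences from WT of -0.44 and -0.61. The dim probe from base 1474 gave differences of -0.66 and -0.88. The order of the group means was the same on all 3 probes, with HEMI lowest, though VSKO and HEMI overlapped on each. The 3 probes share the same RNA samples and so are not separate replicates.

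Utf1, a chromatin factor of undifferentiated germ cells, had its lowest values in HEMI. Its values were 0.90 and 0.85 in VSKO, 0.11 and 0.09 in HEMI and 0.94 and 0.85 in WT. The 2 HEMI animals were close to each other and below the other 4, and VSKO and WT overlapped. The HEMI difference was -0.79 (-1.08 to -0.50) from WT, 1.73-fold lower, with an unadjusted p of 0.000775 and an adjusted p of 0.104. VSKO exceeded HEMI by 0.77 (0.49 to 1.06), 1.71-fold, with an unadjusted p of 0.000857 and an adjusted p of 0.132. VSKO differed from WT by -0.02 (-0.30 to 0.27, adjusted p = 0.961). With a prior variance that follows signal intensity, HEMI against WT passed at an adjusted p of 0.0471, and over all alternatives that p ran from 0.0471 to 0.387.

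Dppa3 (also called Stella), which protects methylated DNA in the early embryo and marks primordial germ cells, had its lowest values in HEMI and the widest spread of the 9 genes. It measured -2.59 and -3.50 in VSKO, -4.09 and -4.68 in HEMI and -2.51 and -2.85 in WT. Both HEMI animals lay below the other 4, and VSKO animal 1 lay among the WT values with VSKO animal 2 below them. The HEMI difference from WT was -1.70 (-2.63 to -0.78), 3.26-fold lower, with an unadjusted p of 0.00491 and an adjusted p of 0.181. VSKO exceeded HEMI by 1.34 (0.41 to 2.26), with an unadjusted p of 0.0136 and an adjusted p of 0.379. The VSKO difference from WT was -0.37 (-1.30 to 0.56, adjusted p = 0.692), which became 0.08 without VSKO animal 2 and -0.82 without VSKO animal 1. With normexp background correction the HEMI difference shrank to -0.94.

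**Figure D3:**
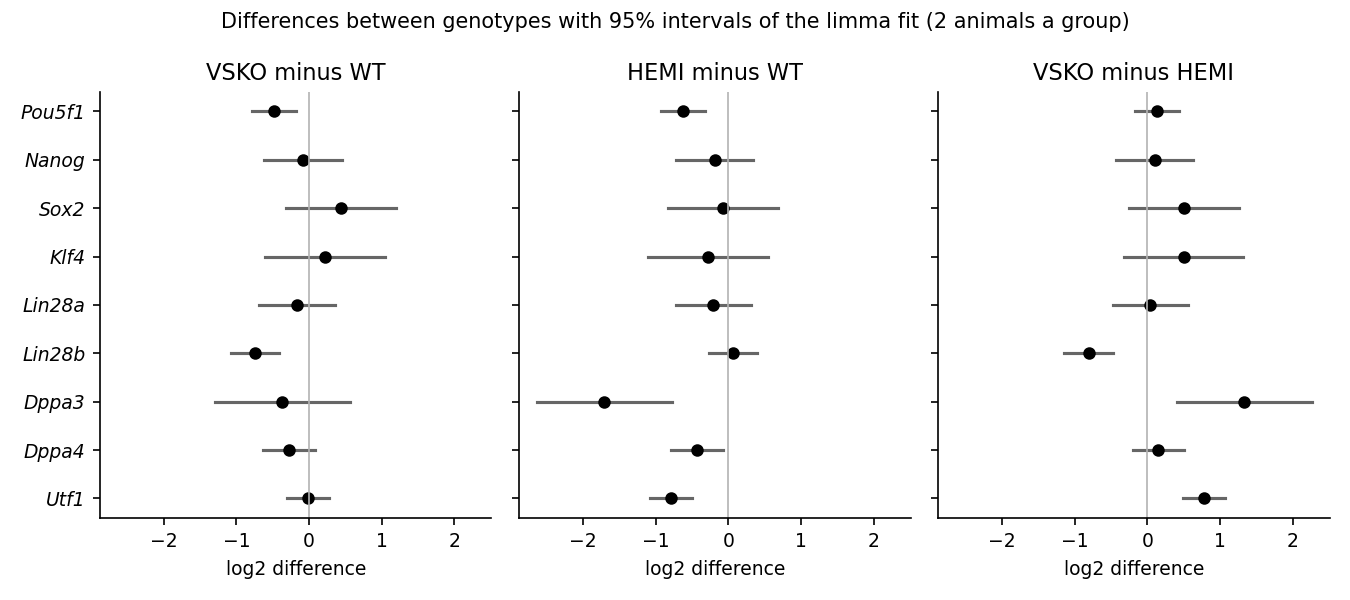
Log2 differences between genotypes (horizontal axis) for the 9 genes, with points at the limma estimate from 2 animals a group and lines for unadjusted 95% intervals. The intervals of Pou5f1 and Lin28b lie below 0 in VSKO minus WT, those of Pou5f1, Dppa3, Dppa4 and Utf1 lie below 0 in HEMI minus WT, and 0 of 9 genes passed after adjustment over all genes.

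The germ cell markers also lay lower in both Sin3a genotypes. Of 18 markers tested, 16 were below WT in VSKO and 16 in HEMI, with median differences of -0.36 and -0.28, where 48.76% of all genes were higher in VSKO than in WT and 46.46% in HEMI. At an unadjusted limma p under 0.05, 8 markers were lower and 1 higher in VSKO, and 7 were lower and 1 higher in HEMI. Over all genes 7.51% and 7.68% were lower at that level. Dnmt3l, the cofactor of de novo DNA methylation in gonocytes, fell by 1.76 in VSKO and by 2.19 in HEMI (adjusted p = 0.0314 and 0.0428). Both calls were lost without any 1 of the 6 arrays, where the differences ran from -1.96 to -1.56 in VSKO and from -2.39 to -1.99 in HEMI. They were also lost with the 2 groups alone, the replicate block or no filter on dim probes (adjusted p = 0.0679 to 0.078 and 0.0902 to 0.126). That in HEMI was also lost with quantile scaling (0.0536) and with scaling to germ cell markers (0.078). Dnmt3l lies outside the rule for naming genes and was chosen after its values were seen, as the 1 germ cell marker that passed. The median level of the germ cell markers was 0.16 and 0.00 in VSKO, 0.05 and 0.26 in HEMI and 0.81 and 0.90 in WT, and its part in the values of the 9 genes was not tested. Each array was also scaled to the germ cell markers in place of the 75th percentile. This raised the median difference of all genes to 0.47 in VSKO and 0.43 in HEMI, and moved every gene by about that amount. That scale is the mean of the 18 markers, which did not move together. Their differences from WT ran from -1.76 (Dnmt3l) to 1.01 in VSKO and from -2.19 (Dnmt3l) to 0.49 in HEMI. Whether the scale follows germ cell content was not tested. On that scale the VSKO difference from WT was -0.01 for Pou5f1 and -0.27 for Lin28b, and the HEMI difference was -0.17 for Pou5f1, -0.33 for Utf1 and -1.25 for Dppa3. Dppa4 changed sign, to 0.20 in VSKO and 0.03 in HEMI. Of 6 fetal Leydig cell markers tested, 4 were below WT in VSKO and 6 in HEMI, and 1 passed in VSKO (Cyp17a1, a steroid hydroxylase, adjusted p = 0.0426), also named after its values were seen. That call was lost without any 1 array, where the difference ran from -1.54 to -1.25. It was also lost in 4 other alternatives: scaling to germ cell markers, no filter on dim probes, the 2 groups alone and the replicate block (0.0531 to 0.0969). The level of Cyp17a1 was 3.86 and 4.15 in VSKO, 4.29 and 4.44 in HEMI and 5.29 and 5.50 in WT. The list had a median difference of -0.85 in VSKO and -0.93 in HEMI, and their part in these values was not tested. Of 7 mesonephric duct and rete markers, 6 were above WT in VSKO and 7 in HEMI, with median differences of 0.21 and 0.51, and Lhx1, a homeobox gene likewise named after its values were seen, passed in VSKO (1.25, adjusted p = 0.0433). With normexp background correction the Lhx1 difference was 0.76, and its call was lost without any 1 array (0.0906 to 0.166) and with quantile scaling, no filter on dim probes, the 2 groups alone or the replicate block (0.0544 to 0.0973). Of 5 erythroid markers 4 were tested and 0 passed, and their median level was 4.77 in VSKO animal 2 and 3.07 to 3.39 in the other 5 animals. Over all genes 0.965% passed in VSKO against WT and 0.118% in HEMI against WT. The part of these lists in the values of the 9 genes was not tested either.

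Beyond the 9 genes, a list of 31 other genes of the pluripotency network was followed, of which 29 were tested. In VSKO against WT 2 passed, both lower, where 0.965% of all genes passed. In HEMI against WT 0 passed (0.118% of all genes), and in VSKO against HEMI 1 passed, lower (0.143%). The median differences were 0.03, -0.06 and 0.01, close to those over all genes. The genes counted were Dppa2, in VSKO against WT, and Sall1, in VSKO against WT and against HEMI. Sall1 was kept for testing through HEMI and WT, and its calls rest on a VSKO level at the limit of measurement.

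Dppa2, whose protein acts in a complex with that of Dppa4, measured -3.53 and -3.36 in VSKO, -2.74 and -2.52 in HEMI and -1.85 and -1.86 in WT. The 3 genotypes did not overlap, with HEMI between the other groups. Dppa2 fell by 1.59 ± 0.14 (SE) in VSKO against WT (adjusted p = 0.0276), and HEMI differed from WT by -0.77 ± 0.14 (adjusted p = 0.144). The call in VSKO was lost without any 1 of the 6 arrays, at adjusted p-values of 0.0595 to 0.148. It was also lost in 3 of 11 other alternatives, where the limma adjusted p reached 0.0714 and the difference ran from -1.63 to -1.06. A dimmer Dppa2 probe gave -0.97 (adjusted p = 0.202 with each probe tested on its own). Dppa2 and Dppa4 lie side by side on chromosome 16 with 0 annotated genes between them in GRCm38.p6. VSKO was lowest for Dppa2, while for Dppa4 VSKO and HEMI overlapped and differed by 0.15 (limma adjusted p = 0.999).

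Sall1, a zinc finger gene also active in kidney and other organs, measured -5.59 and -5.56 in VSKO, -3.86 and -3.85 in HEMI and -3.59 and -3.80 in WT. It was above background on 1 of 2 VSKO arrays and on both arrays of HEMI and of WT, through which it was kept for testing. The dimmest signals called well above background on the VSKO arrays were -5.81 and -5.57, so the VSKO level lies at the limit of measurement and the size of the difference depends on it. On these signals Sall1 was lower by 1.88 in VSKO than in WT and by 1.72 than in HEMI, and both counted as calls. The probe was kept through the groups where it was higher, so no p is given and the calls are not support for a fall. With normexp background correction the Sall1 differences were -0.58 and -0.54 and no longer passed. Without any 1 array neither passed. Over 10 other alternatives, normexp among them, the Sall1 call against WT was lost in 4 and that against HEMI in 6. Its relative Sall4, which maintains germ line stem cells, measured 0.27 and -0.07 in VSKO, 0.60 and 0.80 in HEMI and 0.84 and 0.89 in WT. On this probe both VSKO values were below those of the other 4 animals, and the difference of -0.76 from WT missed the threshold (adjusted p = 0.134). HEMI differed from WT by -0.17. A second Sall4 probe gave -0.33 in VSKO and -0.38 in HEMI against WT, and on it VSKO and HEMI overlapped. A further, dim Sall4 probe was above background on 5 of 6 arrays.

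The other genes of this list with the largest differences in VSKO were Dppa5a, an RNA-binding gene of stem cells, at 1.23 (adjusted p = 0.226), and Esrrb, a nuclear receptor of naive pluripotency, at 0.67 (adjusted p = 0.313). Neither passed, and both lay in the opposite direction to Pou5f1.

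Primordial germ cell specification genes were followed as a list of 12, all tested. In VSKO against WT 1 rose and 0 fell, where 0.965% of all genes passed. In the other comparisons 0 passed, where 0.118% (HEMI against WT) and 0.143% (VSKO against HEMI) of all genes did. The median differences were -0.05 in VSKO against WT, -0.24 in HEMI against WT and 0.06 in VSKO against HEMI. The gene that rose was T (brachyury), a T-box factor of mesoderm, which measured -1.59 and -1.53 in VSKO, -3.29 and -2.72 in HEMI and -3.47 and -3.98 in WT. Both VSKO animals lay above the other 4. T rose by 2.17 in VSKO (adjusted p = 0.0433), and by 1.26 with normexp background correction. It missed the threshold with quantile scaling, the 2 groups alone, the replicate block and no filter on dim probes (adjusted p = 0.0518 to 0.0973). It also missed it without any 1 of the 6 arrays, where the difference ran from 1.91 to 2.42.

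In HEMI against WT, 4 of the 12 specification genes were lower and 2 higher with no overlap of the animals, near the shares of all genes (28.4% and 20.9%). In VSKO against WT 5 were lower and 3 higher in that way (23.4% and 22.3% of all genes). Alpl, the alkaline phosphatase used to stain primordial germ cells, measured 2.84 and 1.94 in VSKO, 0.06 and 0.22 in HEMI and 1.81 and 1.85 in WT. Both HEMI animals lay below the other 4. Its differences were -1.70 for HEMI against WT (adjusted p = 0.144) and 2.25 for VSKO against HEMI (adjusted p = 0.107). Fgf8, a secreted growth factor, differed by -0.65 in HEMI against WT and 1.17 in VSKO against HEMI (adjusted p = 0.387 and 0.236). Prdm1, the repressor that starts germ cell fate, differed by -0.64 in VSKO against WT (adjusted p = 0.359).

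Outside the rule for naming genes, Tfap2c and L1td1 were chosen after their values were seen because both HEMI animals lay below the other 4. Tfap2c, a transcription factor of primordial germ cells, measured -0.50 and -0.34 in VSKO, -1.43 and -1.29 in HEMI and -0.34 and -0.24 in WT. Its HEMI difference from WT was -1.08 (adjusted p = 0.082), which passed with an intensity trend (0.0391) and with normexp (0.0384), over a range of 0.0384 to 0.346. L1td1, an RNA-binding gene of stem cells, differed by -0.57 in HEMI against WT (adjusted p = 0.275). These values are a description, with no test of the genes as a group.

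**Figure D4:**
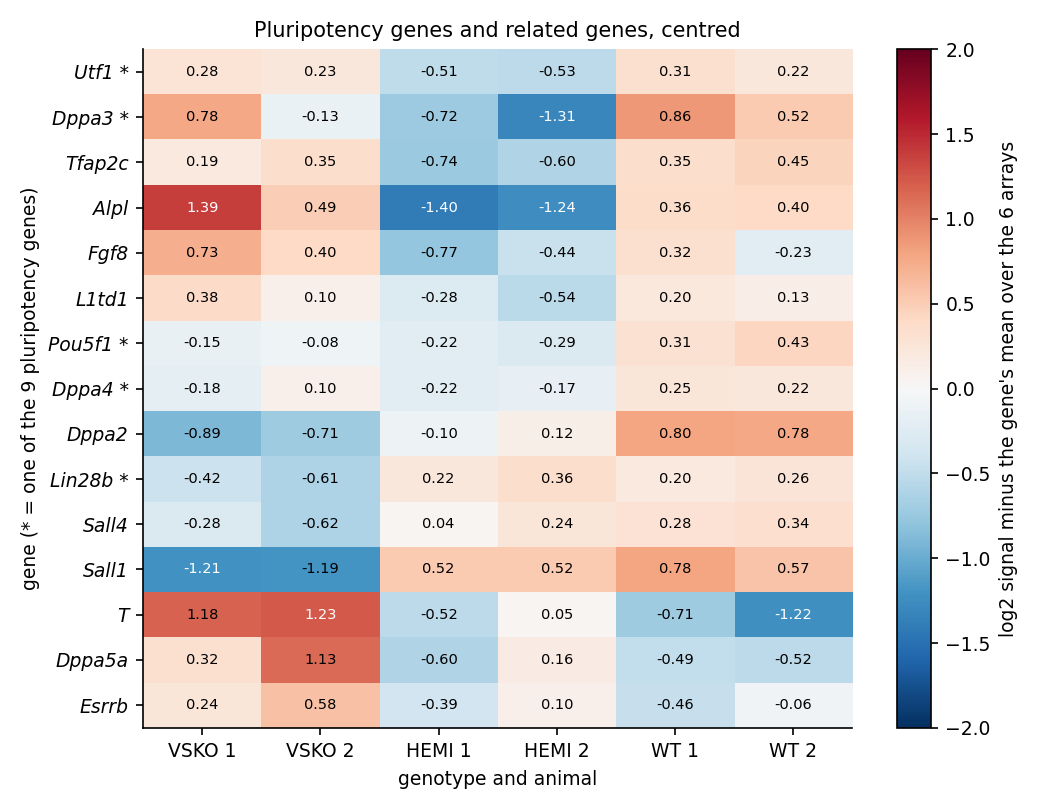
Log2 signal minus the mean of the gene over the 6 arrays (colour and printed value) for 5 of the 9 genes, marked with an asterisk, and 10 related genes, by animal. Utf1, Dppa3, Tfap2c, Alpl, Fgf8 and L1td1 are negative in both HEMI animals, Lin28b, Sall4 and Sall1 are negative in VSKO and positive in HEMI and WT, and T is positive in both VSKO animals. The Sall1 level in VSKO lies at the limit of measurement.

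The partners and targets around Lin28 and let-7 formed a list of 19 genes, all tested, of which 0 passed in any comparison, where 0.118% to 0.965% of all genes did. Their median differences were -0.12 in VSKO against WT, 0.04 in HEMI against WT and -0.15 in VSKO against HEMI. Among those with the largest differences in VSKO against WT were Myc at -0.44, Plagl2 at 0.41 and Tut7 at 0.30 (adjusted p = 0.556, 0.295 and 0.315). A second Plagl2 probe gave 0.47. Myc is a growth-control gene, and Tut7 encodes a uridylyl transferase that marks let-7 precursors for decay.

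Dppa3 and Nanog lie in 1 stretch of chromosome 6, with 0 protein-coding genes between them in GRCm38.p6 and Gdf3 next to Dppa3. Gdf3, a TGF-beta family ligand, differed from WT by 0.03 in VSKO and -0.07 in HEMI on its brighter probe, and Nanog by -0.09 and -0.19. A dim Gdf3 probe was above background on 5 of 6 arrays, and its differences are not used here. Gdf3 falls outside the naming rule and was chosen after its values were seen.

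For each of the 9 genes, the genes with the most similar profile over the 6 arrays were found among 15999 genes with a symbol, by the root mean square (RMS) difference of centred log2 signals. For Pou5f1 these were Zscan30, Gm6498 and Pdia6 at 0.05 each, against an RMS deviation of Pou5f1 itself of 0.27. For Lin28b they were Pgap6, Gpsm3 and Jade2 at 0.07 to 0.09, against 0.37. For Utf1 they were Gm6524, Slc9b2 and Spaca9 at 0.06 to 0.08, against 0.37, and for Dppa3 Phyhip, Pla2g2c and Crb3 at 0.27 to 0.29, against 0.80. For Dppa4 they were Mrpl21, H2aw and Mrpl14, for Nanog Gm15417, Fbxw21 and Gm4850, for Lin28a Mettl17, Gphb5 and Capn12, for Sox2 Slc9a7, Gm3587 and Klkb1, and for Klf4 Tppp, Nmu and Spin4. Ddx4 lay at 0.25 (Dppa4) to 0.93 (Dppa3) from the 9. Any gene not picked is farther than those named, by the way they were chosen. With 6 arrays many genes reach a small difference, so these names describe the arrays and carry no test.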

How the data were processed

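Total RNA of 6 animals was hybridised to 1-colour (Cy3) Agilent arrays. Per the file headers, the deposited processed signal is an intensity on a linear scale, corrected for background within its array. Per the file headers, quality calls (unit: other) mark spots as outliers, as saturated or as well above background. The value table deposited for the series holds an intensity too, checked to equal the processed signal over the array's median, within 0.001%. The submitters' processing notes name Agilent Feature Extraction 8.5.1.1, and the file headers give modules of version 10.7.3.1. No spot was saturated.

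Outlier and control spots were left out. The log2 processed signal was shifted by the 75th percentile of its array over non-control spots. Probes were tested if some group had both arrays well above background, and the probe with the highest mean stood for a gene, which left 24553 genes. Probe names were updated through RefSeq of assembly GRCm38.p6 (2930 probes changed name), and probe positions are on mm9. A single limma fit (version 3.58.1, R 4.3.3) took all 6 arrays, with 1 mean a group, empirical Bayes without a trend and 3 residual degrees of freedom. P-values were adjusted by Benjamini-Hochberg over all genes, and a gene rose or fell where the adjusted p was under 0.05. The fit was tested on simulated data.

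The members and lists were chosen with earlier results of these data known. The rule for naming genes takes all 9 genes and their probes, Sin3a, Sin3b, Ddx4 and Dazl, and, of the pluripotency, Lin28 and specification lists, each gene that passed and the 4 with the largest VSKO difference from WT among those well above background on all 6 arrays. It also takes the 3 genes most alike each of the 9. A gene that the rule names and a probe sequence are not reported here. Alternatives were other scalings, normexp (offset 50), the series table, other filters, single probes, an intensity trend, the 2 groups alone, a replicate block and leaving out each array. The series table is the processed signal over the array's median, so it repeats median scaling and adds no separate check.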

Additional observations from a re-analysis of the deposited data

How the results depend on the processing

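The count of the 9 genes that passed was 0 in each comparison under every alternative run, except 1 (Utf1) in HEMI against WT with an intensity trend. Over the whole array, the count of genes called in VSKO against WT ran from 12 with no filter on dim probes, 19 with the replicate block and 42 with the 2 groups alone to 347 with an intensity trend and 686 with scaling to germ cell markers, and it was 0 to 69 with 1 array left out. In HEMI against WT it ran from 0 to 132 and in VSKO against HEMI from 0 to 74. Of the genes called in VSKO against WT, 35.9% were higher, and 87.0% with scaling to germ cell markers (27.6% and 66.7% in HEMI against WT). Normexp gave 15.2% in HEMI against WT. Same-numbered animals of different groups did not deviate together over all genes (r = -0.037, -0.028 and -0.006). With 2 animals a group this cannot exclude a weak pairing. The replicate block left 0 of the 9 genes called. Scaling to germ cell markers shifted all differences from WT by about 0.4 to 0.5 and turned the sign in VSKO against WT of Nanog (0.39), Lin28a (0.31), Dppa3 (0.11), Dppa4 (0.20), Utf1 (0.46), Myc (0.031), Tfap2c (0.34), Ddx4 (0.23) and Dazl (0.17). In HEMI against WT it turned Nanog (0.27), Sox2 (0.39), Lin28a (0.25), Dppa4 (0.0295), Klf4 (0.18), Sall1 (0.30) and Sin3a (0.25). Median scaling and the series table turned Gdf3 in VSKO against WT (-0.0058) and Lin28a in VSKO against HEMI (-0.030). Normexp turned Lin28b in HEMI against WT (-0.0077), as did its other probe (-0.44). Leaving out 1 array leaves 1 animal in a group and fewer residual degrees of freedom, so a lost call there does not by itself show a changed difference. With 1 array left out, signs turned within ranges that span 0. In VSKO against WT these were Dppa3 (-0.82 to 0.085), Klf4 (-0.20 to 0.64), Lin28a (-0.40 to 0.075), Nanog (-0.30 to 0.12), Utf1 (-0.062 to 0.029), L1td1 (-0.064 to 0.21) and Gdf3 (-0.077 to 0.13). In HEMI against WT they were Klf4 (-0.70 to 0.14), Lin28a (-0.44 to 0.034), Lin28b (-0.0047 to 0.13), Nanog (-0.40 to 0.022), Sox2 (-0.41 to 0.27) and Ddx4 (-0.0043 to 0.20). In VSKO against HEMI they were Lin28a (-0.080 to 0.16) and Nanog (-0.10 to 0.30). Beyond scaling to germ cell markers and leaving out arrays, whose construction moves or removes values, the cause was not tested. Fold changes of Dppa3, Sox2, Sall1 and the dim Lin28b probe are limited by signal near background.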
